A study of Mus musculus with 12 samples.

Results

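The expression of 9 genes of the stroma and the high endothelial venules of the lymph node was followed through 12 RNA-seq libraries of mouse mandibular nodes. They were taken as a list: the chemokine genes Ccl21a, Ccl19, Cxcl13 and Cxcl12, the fibroblast genes Col3a1, Pdgfrb and Pdpn, and the endothelial genes Glycam1 and Madcam1. Each symbol was matched to its most-read Ensembl ID, which gave 9 genes of 56941 in the table, and all 9 were among the 20034 genes that passed the filter on low counts. The mice were knockout for the microRNA miR-451a (KO) or wild type (WT). All of them, controls included, had been sensitized with 1-fluoro-2,4-dinitrobenzene (DNFB), a hapten that causes contact allergy, given as 100 µl at 0.5% on the abdomen on days 0, 1 and 2. The challenged groups, KO_DTH and WT_DTH, also received 20 µl at 1% on the left ear on day 9 and were harvested 24 hours later, on day 10. The sensitized groups, KO_se and WT_se, were harvested on day 9 without challenge. Challenge and harvest day therefore cannot be told apart. Each group had 3 libraries, but no label says that these were separate animals, and the p-values refer to the variation among libraries. Nor do the labels name the strain, the age or the way the deletion was made.

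Lymph node stroma builds the scaffold on which lymphocytes move. Fibroblastic reticular cells of the T zone make CCL19 and CCL21, which draw T cells and dendritic cells through the receptor CCR7, and stromal cells of the B cell follicle make CXCL13, which draws B cells through CXCR5. CXCL12 is made by stromal cells of the medulla and the follicle and acts through CXCR4. High endothelial venules are the vessels by which naive lymphocytes enter. GlyCAM-1, a sulfated mucin, and MAdCAM-1, the ligand of the integrin α4β7, are known as products of their endothelium. Signals through the lymphotoxin β receptor maintain much of this programme.

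Library totals ran from 36.9 to 58.4 M counts. Levels are given as CPM, counts per M counts after TMM scaling, so that 3 counts equalled about 0.0864 CPM in replicate 1 of WT_se. Over all 12 libraries the lowest and highest counts were 55 and 869 for Ccl21a, 133 and 981 for Cxcl13, 60 and 298 for Cxcl12, 92 and 454 for Col3a1, and 99 and 3864 for Glycam1. Ccl19 (0 to 65 counts), Pdpn (0 to 34), Pdgfrb (6 to 53) and Madcam1 (7 to 96) rested on few reads. RNA of salivary gland genes was present in all libraries, and its share of counts differed between groups, at 7.46% ± 2.89 in KO_DTH, 4.51% ± 1.98 in KO_se, 2.54% ± 0.667 in WT_DTH and 10.4% ± 3.72 in WT_se (SD, n = 3 each). All 19 matched genes of the 20 on that list were read. By Xist against Ddx3y, 6 libraries came from females, 2 of KO_DTH, 1 of KO_se, 2 of WT_DTH and 1 of WT_se. The deleted microRNA gene was not analysed here, and its neighbour Mir144 had at most 2 counts, so these counts do not check the genotype labels.

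**Figure D1:**
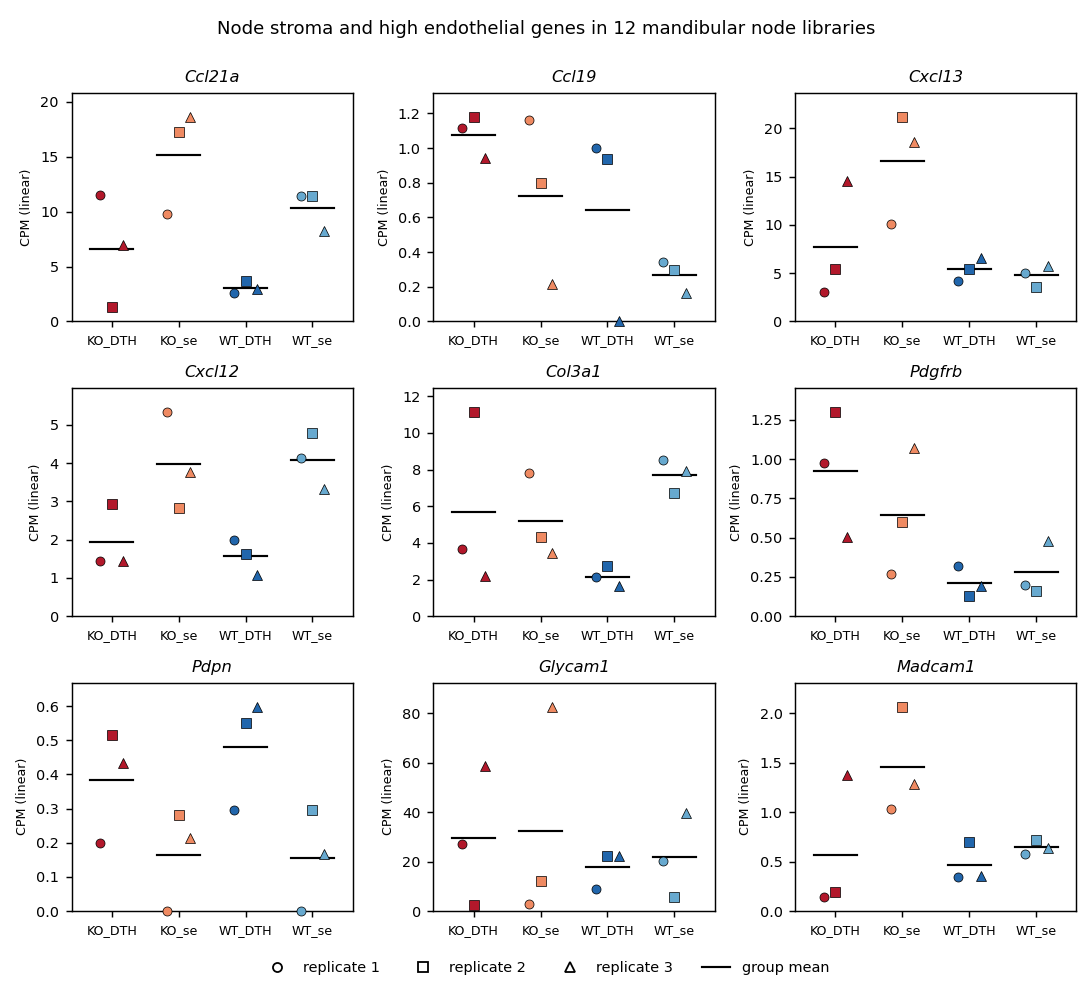
CPM (linear axis) of each of the 9 genes in 4 groups of 3 libraries. Markers tell the replicate numbers apart and the bar is the group mean. The 3 WT_DTH libraries lie below all 3 WT_se libraries for Ccl21a, Cxcl12 and Col3a1 and narrowly above them for Pdpn. KO_se lies above WT_se for Cxcl13 and Madcam1, and KO_DTH above WT_DTH for Pdgfrb. Of all genes tested 35.5%, 28.0% and 18.8% did not overlap in these pairs of groups, in this order.

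Ccl21a, the main CCR7 ligand of the T zone, was lower after challenge in wild type. It read 2.62, 3.65 and 2.99 CPM in the WT_DTH libraries, against 11.5, 11.4 and 8.22 CPM in the WT_se libraries. The groups did not overlap, and the gene fell by 1.75 on the log2 scale (SE 0.52, adjusted p = 0.0344, edgeR quasi-likelihood test). In knockout it read 11.5, 1.35 and 6.94 CPM in KO_DTH, against 9.80, 17.2 and 18.6 CPM in KO_se. These groups overlapped through replicate 1 of each, and the log2 difference of -1.19 did not pass (SE 0.51, adjusted p = 0.169). The knockout values were spread 8.56-fold within KO_DTH and 1.90-fold within KO_se, against 1.40-fold within WT_DTH and 1.39-fold within WT_se. The wild-type call was lost when any of 5 libraries was left out: the adjusted p was then 0.112, 0.0706 and 0.107 without replicate 1, 2 or 3 of WT_DTH, and 0.0833 and 0.0841 without replicate 1 or 2 of WT_se. As elsewhere in RNA from a whole node, fewer stromal cells and less RNA per cell cannot be told apart.

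Ccl21a has near-identical copies on chromosome 4, so its count depends on how reads were shared among them. In GENCODE M21 (GRCm38) the coding sequences of Ccl21b, Gm13304, Gm10591 and Gm21541 were identical to each other over 402 bases and 99.5% identical to that of Ccl21a. The substitutions from Ccl21a to the copies, counted from the A of the start codon, were T84A and C194T. The stretch from coding position 74 to 204 is shown because it holds the only coding bases that tell the copies from Ccl21a; these bases are in capitals, and both sequences run 5′ to 3′ on the coding strand. The Ccl21a gene lies at chr4:42772860-42773993 on the minus strand and Ccl21b at chr4:42255767-42256432 on the plus strand.
Ccl21a: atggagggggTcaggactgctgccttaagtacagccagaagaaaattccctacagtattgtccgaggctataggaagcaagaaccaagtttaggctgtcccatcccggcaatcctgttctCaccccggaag
Ccl21b and the 3 other copies: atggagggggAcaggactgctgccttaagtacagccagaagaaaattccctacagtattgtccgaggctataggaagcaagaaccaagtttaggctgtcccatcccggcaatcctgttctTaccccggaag

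The copies' part of all Ccl21 counts differed several-fold between libraries of the same group. The 4 copies together took 1.53%, 0% and 22.2% of Ccl21 counts in KO_DTH, 1.26%, 0.125% and 19.4% in KO_se, 12.9%, 0.995% and 23.4% in WT_DTH and 16.0%, 2.06% and 15.6% in WT_se. Replicate 3 was high and replicate 2 was low in every group, and replicate 1 was high only in the wild-type groups. Among the 6 low libraries the highest upper bound of the 95% interval (exact Clopper-Pearson, counting error only) was 3.88% where copies were counted, and among the 6 high ones the lowest lower bound was 7.68%. The 0% of replicate 2 of KO_DTH was 0 copy counts beside 55 counts of Ccl21a, with an upper bound of 6.49% by the same interval. With the copies' counts added to those of Ccl21a, the wild-type log2 change was -1.72 (adjusted p = 0.0413) and the knockout one -1.19 (adjusted p = 0.186), an alternative chosen after the data were seen. What sets the split was not tested.

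**Figure D2:**
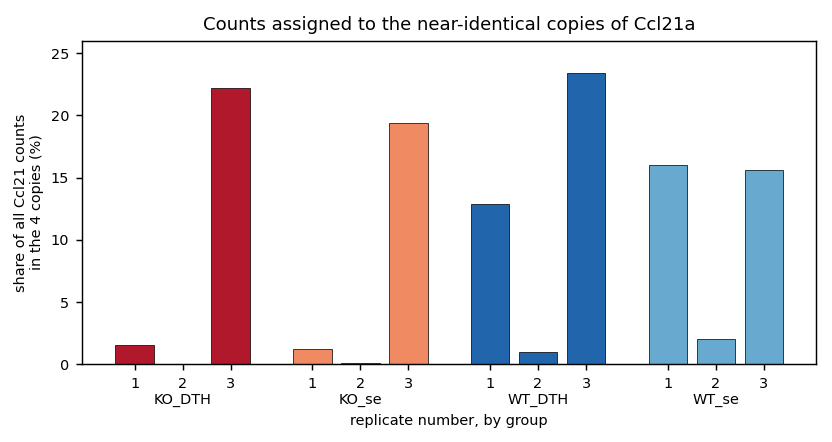
Share of all Ccl21 counts (%) assigned to the 4 copies Ccl21b, Gm13304, Gm10591 and Gm21541, 1 bar per library, by group and replicate number. Of the 12 bars 6 stand between 12.9% and 23.4% and the other 6 between 0% and 2.06%.

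Ccl19, the other CCR7 ligand, was too little read for a comparison. It read 1.11, 1.18 and 0.94 CPM in KO_DTH, 1.16, 0.80 and 0.21 CPM in KO_se, 1.00, 0.94 and 0 CPM in WT_DTH, and 0.35, 0.29 and 0.17 CPM in WT_se. The WT_DTH library at 0 had 0 counts, which at 3 counts would still allow up to 0.0527 CPM. No contrast passed, and the standard errors were near 1 log2 unit (log2 change 1.26, SE 1.01, adjusted p = 0.454 for challenge in wild type). Its annotated pseudogenes include Ccl19-ps3, which had 0 to 31 counts per library, and reads shared with a pseudogene cannot be told apart here. CCR7 itself is carried by lymphocytes and dendritic cells. Ccr7 read 674, 781 and 814 CPM in WT_DTH, against 1027, 1201 and 1019 CPM in WT_se, and fell by 0.52 on the log2 scale (SE 0.12, adjusted p = 0.00954; 0.0619 without replicate 1 of WT_DTH). Over the same pair of groups 7 of 8 T cell markers fell and 7 of 8 B cell markers rose. Of all genes 8.97% were called lower there and 9.77% higher. The T cell list summed to 957 to 1229 CPM in WT_DTH and 1546 to 1793 CPM in WT_se, and the part of this in the Ccr7 value was not tested. Ackr4, the scavenging receptor for CCL19 and CCL21, did not pass (log2 change -1.82, SE 1.00, adjusted p = 0.246).

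Cxcl13, the B cell chemokine of the follicle, was the 1 listed gene called between the genotypes, higher in knockout before challenge. It read 10.1, 21.1 and 18.6 CPM in KO_se, against 5.04, 3.56 and 5.79 CPM in WT_se. The lowest KO_se library was thus above the highest WT_se library, and the gene rose by 1.79 on the log2 scale (SE 0.47, adjusted p = 0.046). After challenge it read 3.01, 5.47 and 14.6 CPM in KO_DTH, against 4.19, 5.45 and 6.52 CPM in WT_DTH, and the groups overlapped (log2 difference 0.51, SE 0.46, adjusted p = 0.708). Within knockout the log2 difference of KO_DTH from KO_se was -1.11 (SE 0.46, adjusted p = 0.154). Replicate 3 of KO_DTH was the high one. Without it the knockout challenge difference was -1.98 (adjusted p = 0.007) and the interaction of genotype and challenge -2.19 (adjusted p = 0.0255), where the interaction over all libraries was -1.28 (SE 0.65, adjusted p = 0.364).

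The sensitized genotype call for Cxcl13 stood close to its threshold. Its adjusted p was 0.147 and 0.0957 without replicate 2 or 3 of KO_se, and 0.119, 0.122 and 0.0965 without replicate 1, 2 or 3 of WT_se. It was 0.0503, 0.0625 and 0.0546 without replicate 1, 2 or 3 of WT_DTH, a group that is on neither side of this contrast. The log2 difference stayed between 1.58 and 2.05 when any 1 library was left out. Cxcr5, the receptor of CXCL13 on B cells and follicular T cells, read 130, 147 and 107 CPM in KO_se, against 97.4, 70.3 and 85.1 CPM in WT_se, and rose by 0.60 on the log2 scale (SE 0.15, adjusted p = 0.0352). Its call was lost without replicate 1 or 2 of KO_se (adjusted p = 0.092 and 0.137) and without replicate 2 or 3 of WT_se (0.0984 and 0.0894). B cell markers moved with both: 3 of 8 rose, where 3.76% of all genes were called higher. The B cell list summed to 1936 to 2718 CPM in KO_se and 1389 to 1758 CPM in WT_se. The part of these markers in the Cxcl13 and Cxcr5 values was not tested.

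Genes of the follicular dendritic cell, a follicular stromal cell that holds antigen for B cells, were read beside Cxcl13. Of the 8 on the list, 1 was called higher and none lower in KO_se against WT_se, where 3.76% of all genes were called higher, with a list median of 0.62 on the log2 scale against -0.01 over all genes tested. Coch, which encodes the secreted protein cochlin, was that gene. It read 2.25, 3.55 and 2.37 CPM in KO_se, against 0.81, 0.67 and 0.38 CPM in WT_se (log2 difference 2.14, SE 0.55, adjusted p = 0.0415). The Coch call was lost without any 1 of the 6 sensitized libraries (adjusted p 0.0666 to 0.14) and without replicate 2 or 3 of WT_DTH (0.0567 and 0.0519). Cr2, the complement receptor shared by these cells and B cells, read 195, 252 and 156 CPM in KO_se and 138, 96.9 and 116 CPM in WT_se, without passing. After challenge 1 of the 8 rose and 2 fell in wild type, where 9.77% of all genes were called higher and 8.97% lower. In knockout 1 rose and 1 fell, where of all 20034 genes 1164 were called higher and 774 lower. Fcgr2b, an inhibitory Fc receptor that B cells and myeloid cells carry too, rose in both genotypes, by 0.88 in knockout (adjusted p = 0.00146) and 1.55 in wild type (adjusted p = 2.71e-05). Mfge8, a bridge to dying cells, fell by 0.85 in knockout (adjusted p = 0.0411), and Clu, the secreted chaperone clusterin, fell by 0.91 in wild type (adjusted p = 0.0165). Each was also lower after challenge in the other genotype, without overlap and without passing. Mfge8 read 20.02, 34.30 and 35.64 CPM in WT_DTH, against 41.05, 52.95 and 48.10 CPM in WT_se. Clu read 36.43, 27.97 and 49.97 CPM in KO_DTH, against 52.81, 71.70 and 71.76 CPM in KO_se. The interaction of genotype and challenge passed for neither gene. Leaving out 1 library took the Mfge8 call in 7 of 12 fits and the Clu call in 2, and both Fcgr2b calls held in all 12. Sox9, a transcription factor, fell by 2.95 in wild type (adjusted p = 0.00234), and this call held in all 12. With 2 principal components of salivary gland genes as covariates that change was -0.008. Sox9 was 3.29 higher in KO_DTH than in WT_DTH (adjusted p = 0.0207), a call lost in 5 of 12 fits.

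Cxcl12, the ligand of CXCR4, was lower after challenge in wild type, and its knockout difference had the same sign but did not pass. It read 1.98, 1.63 and 1.09 CPM in WT_DTH, against 4.15, 4.79 and 3.33 CPM in WT_se. The groups did not overlap, and the gene fell by 1.39 on the log2 scale (SE 0.35, adjusted p = 0.0165). In knockout it read 1.43, 2.94 and 1.45 CPM in KO_DTH, against 5.33, 2.82 and 3.76 CPM in KO_se (log2 difference -1.04, SE 0.35, adjusted p = 0.0836). The overlap came from replicate 2 of both knockout groups. Without replicate 2 of KO_DTH the knockout difference was -1.46 (adjusted p = 0.0302), and with DESeq2's Wald test over all libraries it was -1.03 (adjusted p = 0.0322). The wild-type call was lost without replicate 3 of WT_DTH (adjusted p = 0.0784) or replicate 2 of WT_se (adjusted p = 0.0572). The test of the difference between the genotypes' challenge effects gave 0.35 (SE 0.49, adjusted p = 0.812).

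The receptors of CXCL12 differed in level of reading. Cxcr4 lay between 427 and 674 CPM in all libraries and passed in no contrast, with log2 changes of -0.22 (SE 0.12, adjusted p = 0.292) for challenge in knockout and -0.06 (SE 0.12, adjusted p = 0.784) in wild type. Ackr3, an atypical receptor that binds and removes CXCL12, read 0.23, 0.31 and 0.49 CPM in WT_DTH, against 1.53, 1.26 and 0.88 CPM in WT_se. It fell by 1.81 on the log2 scale (SE 0.59, adjusted p = 0.0499), a call that held only in the fits without replicate 2 or 3 of KO_se or replicate 1 of KO_DTH, and otherwise gave an adjusted p up to 0.155 when 1 library was left out.

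Col3a1, the chain of type III collagen in reticular fibres, had the largest wild-type change of the 3 listed genes called there. It read 2.12, 2.72 and 1.63 CPM in WT_DTH, against 8.52, 6.75 and 7.91 CPM in WT_se. The groups did not overlap, and the gene fell by 1.84 on the log2 scale (SE 0.50, adjusted p = 0.0213). In knockout it read 3.68, 11.1 and 2.22 CPM in KO_DTH, against 7.83, 4.35 and 3.46 CPM in KO_se, so that the highest and the lowest of the 6 knockout libraries were both challenged ones (log2 difference 0.12, SE 0.48, adjusted p = 0.921). The wild-type call was lost without replicate 1 or 3 of WT_DTH (adjusted p = 0.0675 and 0.0891) or replicate 1 of WT_se (adjusted p = 0.0562). The interaction of genotype and challenge was 1.96 (SE 0.68, adjusted p = 0.166). DESeq2's Wald test gave 1.97 (adjusted p = 0.0435), and the fit without replicate 3 of KO_DTH gave 2.29 (adjusted p = 0.0494).

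Pdgfrb and Pdpn, which encode the PDGF receptor β of fibroblasts and pericytes and the membrane protein podoplanin of reticular fibroblasts, passed in no contrast. Pdgfrb read 0.98, 1.30 and 0.51 CPM in KO_DTH, 0.27, 0.60 and 1.07 CPM in KO_se, 0.32, 0.13 and 0.19 CPM in WT_DTH and 0.20, 0.16 and 0.48 CPM in WT_se. All 3 KO_DTH libraries were above all 3 WT_DTH libraries, and the log2 difference was 2.12 (SE 0.68, adjusted p = 0.165). Pdpn read 0.20, 0.51 and 0.43 CPM in KO_DTH, 0, 0.28 and 0.21 CPM in KO_se, 0.30, 0.55 and 0.60 CPM in WT_DTH and 0, 0.29 and 0.17 CPM in WT_se. Between challenged and sensitized wild type the lowest WT_DTH and the highest WT_se library, at 0.296 and 0.295 CPM, were nearly equal, and the log2 difference was 1.62 (SE 1.17, adjusted p = 0.393). The partners of these proteins did not pass either. Pdgfb, a ligand of the PDGF receptor β, had log2 changes after challenge of 0.07 in knockout (SE 0.30, adjusted p = 0.922) and -0.29 in wild type (SE 0.30, adjusted p = 0.572). Clec1b, the platelet receptor that binds podoplanin, had -1.53 (SE 1.02, adjusted p = 0.399) and -2.26 (SE 1.07, adjusted p = 0.173).

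Of 20 other fibroblast and matrix genes tested, 7 fell and 3 rose after challenge in wild type, where 8.97% of all genes were called lower and 9.77% higher. The list median was -1.53 on the log2 scale against -0.01 over all genes tested. Those that fell were the collagen genes Col1a2, Col5a1, Col5a2, Col6a1 and Col6a2 and the proteoglycan genes Dcn and Lum. Dcn, which encodes decorin, read 1.61, 1.84 and 2.16 CPM in WT_DTH, against 10.5, 12.2 and 8.86 CPM in WT_se (log2 change -2.49, SE 0.46, adjusted p = 0.00284). Col6a2, a chain of microfibrillar type VI collagen, read 0.20, 0.64 and 0.30 CPM in WT_DTH, against 2.22, 3.94 and 2.52 CPM in WT_se (log2 change -2.90, SE 0.51, adjusted p = 0.00225). In these Dcn and Col6a2 values every WT_DTH library was far below every WT_se library. In knockout the list had 0 genes that fell and 3 that rose, with a median of -0.17. Of all 20034 genes tested, 774 were called lower there and 1164 (5.81%) higher. Dcn read 3.98, 10.4 and 2.12 CPM in KO_DTH, against 12, 7.55 and 6.65 CPM in KO_se. The difference between the genotypes' challenge effects passed for 0 of the 20 genes. Leaving out 1 library at a time left 4 to 6 genes lower in wild type, with Dcn, Col6a1 and Col6a2 called in all 12 fits. With 2 principal components of salivary gland genes as covariates, 0 of the list were called for challenge in wild type, where 7 of all genes were.

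The genes of this list that rose are not matrix genes. Bst1, an ectoenzyme of stromal and myeloid cells, read 11.5, 10.4 and 8.92 CPM in KO_DTH and 4.90, 2.80 and 5 CPM in KO_se, with 10.4, 9.20 and 5.83 CPM in WT_DTH and 1.01, 1.82 and 2.07 CPM in WT_se. It rose after challenge by 1.28 in knockout (SE 0.30, adjusted p = 0.0177) and by 2.37 in wild type (SE 0.32, adjusted p = 0.000374), and it was 1.37 higher in KO_se than in WT_se (SE 0.31, adjusted p = 0.0258). The knockout challenge call was lost without replicate 1 of KO_DTH or replicate 2 of KO_se (adjusted p = 0.0667 and 0.0752). The sensitized genotype call was lost without replicate 1 or 3 of KO_se (0.0841 and 0.0697) or replicate 1 or 2 of WT_se (0.0896 and 0.0543). Icam1, an adhesion molecule that many activated cells carry, rose in both genotypes, by 0.66 in knockout (adjusted p = 0.0315) and 0.89 in wild type (adjusted p = 0.00383). Vcam1, the adhesion ligand of α4 integrins, rose by 0.48 after challenge in wild type (adjusted p = 0.0444) and was 0.68 higher in KO_se than in WT_se (adjusted p = 0.023). When each library was left out in turn, 7 of 12 fits lost the first of these Vcam1 calls and 4 lost the second. That of Icam1 in knockout was lost without replicate 1 of KO_DTH or replicate 1 or 2 of KO_se (adjusted p = 0.129, 0.108 and 0.113). Ltbr, the lymphotoxin β receptor itself, read 18.1, 18.7 and 10.7 CPM in KO_DTH, against 5.63, 3.53 and 5.88 CPM in KO_se, a rise of 1.66 on the log2 scale (SE 0.28, adjusted p = 0.0025). In wild type Ltbr was also higher after challenge, without passing, at 19.1, 13.0 and 10.6 CPM in WT_DTH and 9.70, 7.23 and 7.67 CPM in WT_se.

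**Figure D3:**
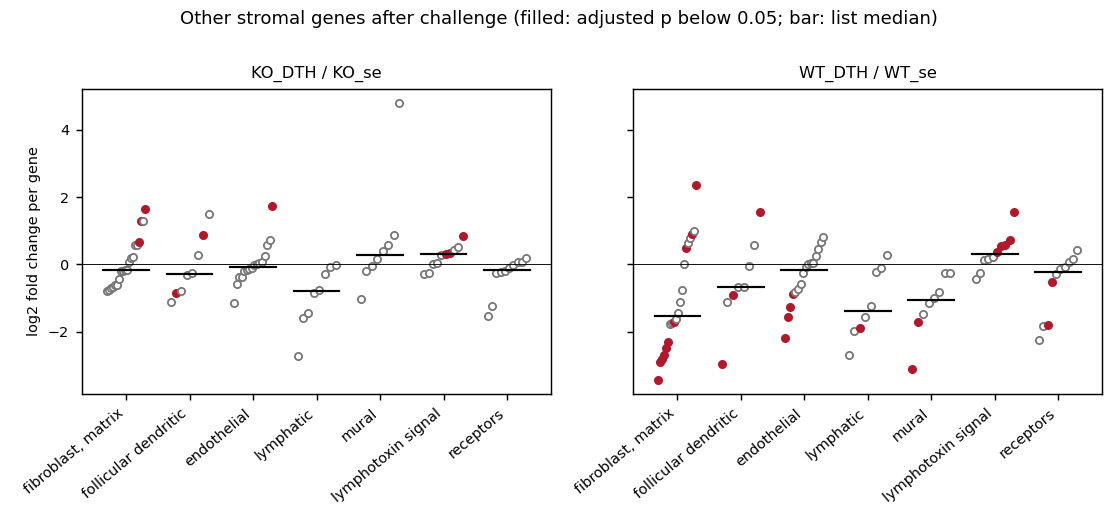
Log2 fold change after challenge for each tested gene of 7 stromal and signalling lists, knockout on the left and wild type on the right. Each point is 1 gene, filled where its adjusted p is below 0.05, and the bar is the list median. The fibroblast and matrix list has 7 called genes below 0 in wild type and 0 in knockout. Of all 20034 genes tested, 1798 were called lower in wild type and 774 in knockout.

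Glycam1, the mucin of high endothelial venules, had the widest range among the 7 genes read in every library. It read 27.2, 2.43 and 58.6 CPM in KO_DTH, 2.77, 12.1 and 82.6 CPM in KO_se, 8.85, 22.3 and 22.3 CPM in WT_DTH and 20.1, 5.73 and 39.6 CPM in WT_se. The highest and lowest libraries differed 34.0-fold, and the spread within KO_DTH, 24.1-fold, and KO_se, 29.8-fold, was nearly as wide. All groups overlapped, and no contrast came near its threshold (log2 changes -0.14, SE 1.07, adjusted p = 0.959 for challenge in knockout, and -0.29, SE 1.08, adjusted p = 0.904 in wild type). With standard errors above 1 log2 unit, a 2-fold difference in Glycam1 was not detectable with these libraries. Replicate 3 was the highest library of KO_DTH, KO_se and WT_se, and in WT_DTH replicates 2 and 3 were level.

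Madcam1 read low but held together within the sensitized groups. It read 1.04, 2.07 and 1.28 CPM in KO_se, against 0.58, 0.72 and 0.64 CPM in WT_se. These groups did not overlap, and the log2 difference of 1.17 did not pass (SE 0.71, adjusted p = 0.372). After challenge it read 0.14, 0.20 and 1.37 CPM in KO_DTH and 0.34, 0.70 and 0.35 CPM in WT_DTH, with replicate 3 of KO_DTH far above the other two. Without that library the knockout challenge difference was -3.12 (adjusted p = 0.00752), where it was -1.36 over all libraries (SE 0.71, adjusted p = 0.27). Itga4 and Itgb7, the genes of the α4β7 integrin that binds MAdCAM-1, passed in no contrast, with log2 differences of KO_se from WT_se of -0.31 (SE 0.11, adjusted p = 0.126) and -0.01 (SE 0.08, adjusted p = 0.972).

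The enzymes that modify the sugars of high endothelial mucins did not pass in any contrast. Fut7, a fucosyltransferase, read 3.50, 2.50 and 2.12 CPM in KO_DTH, 1.18, 2.50 and 4.06 CPM in KO_se, 1.77, 1.27 and 0.88 CPM in WT_DTH and 1.5, 0.56 and 1.26 CPM in WT_se (log2 difference of KO_se from WT_se 1.22, SE 0.48, adjusted p = 0.154). Chst4, the sulfotransferase most restricted to high endothelium, had at most 1.29 CPM. Of the 16 endothelial genes on the list 4 fell after challenge in wild type, Vwf, Emcn, Cdh5 and Cd34, none rose and 12 did not pass. Their median log2 change was -0.17, and 8.97% of all genes were called lower in that contrast. Emcn, endomucin, read 0.68, 0.94 and 0.74 CPM in WT_DTH, against 3.71, 4.18 and 2.79 CPM in WT_se (log2 change -2.17, SE 0.41, adjusted p = 0.00328). In knockout 1 of the 16 rose, a share near the 5.81% of all genes called higher there, and none fell. That gene, Kdr, which encodes a VEGF receptor, read 17.7, 13.4 and 7.71 CPM in KO_DTH, against 3.58, 3.03 and 5.11 CPM in KO_se (log2 change 1.73, SE 0.28, adjusted p = 0.00195). In wild type Kdr was also higher after challenge, without passing, at 12.7, 11.1 and 9.40 CPM in WT_DTH and 7.11, 6.43 and 7.57 CPM in WT_se. Its interaction of genotype and challenge did not pass. The Emcn, Vwf and Kdr calls held without any 1 library, that of Cdh5 was lost without replicate 1 of WT_DTH (adjusted p = 0.0533), and that of Cd34 was lost in 9 of 12 fits. Pecam1, the pan-endothelial adhesion molecule that leukocytes also carry, passed in no contrast.

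Vwf and Acta2 were among 3 stromal list genes called for the interaction of genotype and challenge, where 2.11% of all genes were called. The 3 were 1 of 16 endothelial, 1 of 8 mural and 1 of 8 follicular dendritic genes. None was called in the other stromal and signalling lists. With 2 principal components of salivary gland genes as covariates none of the 3 passed, but that fit called 0 of all genes for the interaction. It therefore does not set these 3 apart from other genes. Vwf, von Willebrand factor of endothelium and platelets, read 3.44, 2.89 and 2.27 CPM in KO_DTH and 1.61, 1.96 and 1.69 CPM in KO_se, with 0.68, 0.75 and 0.58 CPM in WT_DTH and 1.67, 1.98 and 2.36 CPM in WT_se. The interaction was 2.29 on the log2 scale (SE 0.39, adjusted p = 0.0237). Acta2, the smooth muscle actin of pericytes and muscle, read 2.81, 8.55 and 3.91 CPM in KO_DTH and 2.88, 2.09 and 3.27 CPM in KO_se, with 0.59, 1.03 and 0.84 CPM in WT_DTH and 7.14, 7.55 and 6.57 CPM in WT_se. Its interaction was 3.99 (SE 0.53, adjusted p = 0.0237), and its fall in wild type was 3.10 on the log2 scale. In both genes the WT_DTH libraries were the lowest of all. The Vwf interaction was lost without replicate 1 or 2 of KO_DTH, replicate 1 or 2 of KO_se, replicate 3 of WT_DTH or replicate 3 of WT_se (adjusted p 0.0543 to 0.0725). That of Acta2 was lost without replicate 1 or 2 of KO_se or replicate 3 of WT_DTH (adjusted p 0.0635 to 0.0719). Myh11, the smooth muscle myosin, also fell in wild type (log2 change -1.72, adjusted p = 0.0181; lost without replicate 1 or 2 of WT_DTH or replicate 3 of WT_se, at 0.0677, 0.0707 and 0.0912), and 0 of the 8 mural genes passed for challenge in knockout.

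Of the lymphatic endothelial genes 1 of 8 fell after challenge in wild type, a share near the 8.97% of all genes called lower there, and none passed in knockout. Lyve1, the hyaluronan receptor of lymphatic endothelium and some macrophages, was the one (log2 change -1.88, SE 0.61, adjusted p = 0.0496), which held only in the fits without replicate 3 of WT_se or replicate 1 or 2 of KO_DTH and otherwise reached adjusted p up to 0.22. Of 10 genes of the lymphotoxin signal 3 rose after challenge in knockout, where 5.81% of all genes were called higher, and 5 rose in wild type, where 9.77% were. None was called lower; leaving out 1 library gave 1 to 4 and 2 to 6. Nfkb2, the precursor of the noncanonical NF-κB subunit, read 229, 233 and 232 CPM in WT_DTH, against 133, 162 and 169 CPM in WT_se (log2 change 0.58, SE 0.09, adjusted p = 0.001). Tnfsf14, the cytokine LIGHT, which binds the lymphotoxin β receptor, rose by 1.55 in wild type (SE 0.27, adjusted p = 0.00215). It was 1.24 higher in KO_se than in WT_se (SE 0.27, adjusted p = 0.0215), a call lost without replicate 2 or 3 of KO_se (adjusted p = 0.0737 and 0.0585) or replicate 1 or 2 of WT_se (0.0846 and 0.0511). The ligand genes Lta and Ltb passed in no contrast.

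Over the 9 genes, 3 were called after challenge in wild type, all lower, where 18.7% of all genes tested were called in either direction and 8.97% were called lower. For challenge in knockout 0 of 9 were called by edgeR (9.67% of all genes), 3 had an unadjusted p below 0.05, and DESeq2's Wald test called 1. For genotype when sensitized 1 was called, higher, where 5.17% of all genes were called and 3.76% were called higher. For genotype when challenged 0 were called (0.599% of all genes), 2 had an unadjusted p below 0.05, and the Wald test called 0. For the interaction 0 were called (2.11% of all genes), 1 had an unadjusted p below 0.05, and the Wald test called 1. The median log2 change of the 9 was -0.14 for challenge in knockout, -0.41 for challenge in wild type, 0.57 for genotype when sensitized and 0.72 for genotype when challenged. Over all genes tested these medians lay between -0.01 and 0.01.

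Groups without overlap were also counted, beside the same count over all genes. After challenge 0 of 9 did not overlap in knockout, against 30.1% of all genes, and 4 of 9 did not overlap in wild type, against 35.5%. Between the genotypes 2 of 9 did not overlap when sensitized, against 28.0% of all genes, and 1 of 9 when challenged, against 18.8%. In the order of the 4 group means only 2 neighbouring pairs were separated: KO_se above WT_se for Madcam1, and KO_se above WT_DTH, the lowest group, for Col3a1. All other neighbours overlapped. KO_se had the highest mean for Ccl21a, Cxcl13, Glycam1 and Madcam1, and WT_DTH the lowest for Ccl21a, Cxcl12, Pdgfrb, Col3a1, Glycam1 and Madcam1.

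**Figure D4:**
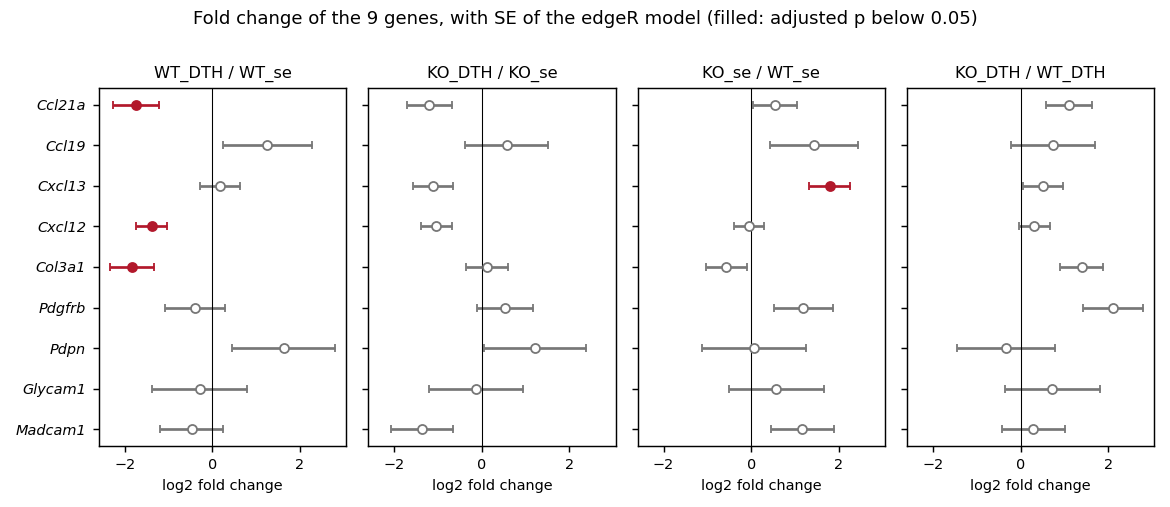
Log2 fold change of each of the 9 genes in 4 comparisons, with the SE of the edgeR model as error bars and filled points where the adjusted p is below 0.05. The filled points are Ccl21a, Cxcl12 and Col3a1 for WT_DTH over WT_se and Cxcl13 for KO_se over WT_se.

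The salivary gland signal moved with these comparisons. In wild type its share was lower after challenge, at 2.54% in WT_DTH and 10.4% in WT_se. There 16 of 18 salivary genes tested fell, where 8.97% of all genes were called lower. In knockout the salivary share was 7.46% in KO_DTH and 4.51% in KO_se. There 2 of 18 salivary genes rose, where 5.81% of all genes were called higher. With 2 principal components of the salivary genes as covariates, 0 of the 9 genes were called in any contrast, and over all genes 7 were called for challenge in wild type. Ccl21a was then at -3.44 (SE 0.88, adjusted p = 0.186), Cxcl12 at -0.91 (SE 0.69, adjusted p = 0.716) and Col3a1 at -0.78 (SE 0.81, adjusted p = 0.81), all for challenge in wild type. Cxcl13 for genotype when sensitized was at 1.69 (SE 0.77, adjusted p = 0.389). Without the most salivary library of each group the wild-type changes were -2.03 for Ccl21a (adjusted p = 0.0059), -1.55 for Cxcl12 (adjusted p = 0.0418) and -2.03 for Col3a1 (adjusted p = 0.0104). Of the 49 calls in the stromal and signalling lists 1 held with the covariates, the rise of Fcgr2b in knockout, and 25 held without the most salivary libraries. The sensitized genotype difference of Cxcl13 was in that last setting 1.86 (adjusted p = 0.197).

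**Figure D5:**
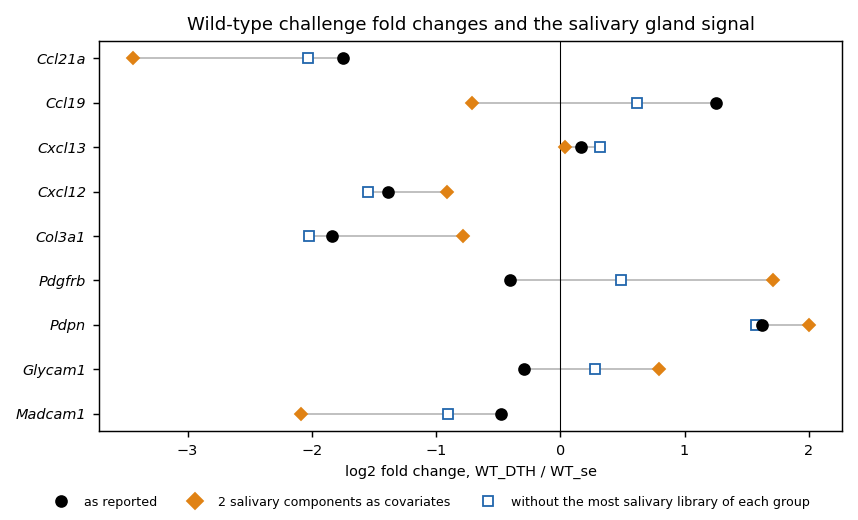
Log2 fold change of WT_DTH over WT_se for each of the 9 genes as reported (circles), with 2 salivary components as covariates (diamonds) and without the most salivary library of each group (squares). Ccl21a, Cxcl12 and Col3a1 stay below 0 under all 3 settings, and Ccl19, Pdgfrb and Glycam1 cross 0.

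Mitochondrial RNA moved too, at 10.3%, 16.0% and 5.75% of counts in KO_DTH, 16.3%, 12.2% and 13.4% in KO_se, 4.53%, 6.02% and 5.32% in WT_DTH and 19.4%, 18.4% and 14.0% in WT_se. Its part in the values of the 9 genes was not tested. Replicate 2 of KO_DTH, with 9.31% salivary counts, held the highest Col3a1, Pdgfrb and Ccl19 of all 12 libraries and the lowest Ccl21a and Glycam1. Col3a1, Pdgfrb and Ccl19 thus stood at the opposite end from Ccl21a and Glycam1 in that 1 library. Pdpn, listed as a fibroblast gene with Col3a1 and Pdgfrb, read 0.51 CPM there. Its highest value was 0.60 CPM, in replicate 3 of WT_DTH.

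The genes whose log2 CPM followed each listed gene most closely over the 12 libraries, among 9759 genes with a mean of at least 5 CPM, are given as a description. For Cxcl12 they were Rcn3, a protein of the endoplasmic reticulum (Pearson r 0.94), and the mitochondrial tRNA genes mt-Tl1 (0.94) and mt-Tm (0.91). For Col3a1 they were Pfkm (0.96), Derl3 (0.94) and Gstm1 (0.93), and for Ccl21a Snapc3, F2r and Orc5 (0.91 each). Gdf11, a secreted factor of the TGF-β family, was first for both Cxcl13 (0.93) and Madcam1 (0.91). The closest gene was Bop1 for Pdpn (0.89), Gpr155 for Pdgfrb (0.88), Ipo9 for Ccl19 (0.83) and D2hgdh for Glycam1 (0.82). None of these is in the stromal lists. The libraries share their group means, so such values carry the group differences with them.

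Promoters of 8 of the 9 genes were found in RefSeq (GRCm38.p6), and the 250 bases before each start were searched on both strands for the TATA box TATAAA, the GC box GGGCGG, the box CCAAT and, by name, the NF-κB consensus. The last 100 bases before the start are shown for Cxcl13 and Madcam1, which were higher in every KO_se than in every WT_se library, and for Cxcl12, which had the smallest adjusted p of the 9 genes. Matches are in capitals, and each sequence runs 5′ to 3′ on the plus strand, which is the gene's strand.
Cxcl13, chr5:95956839-95956938: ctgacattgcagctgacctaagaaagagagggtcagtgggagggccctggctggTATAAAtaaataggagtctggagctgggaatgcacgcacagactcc
Madcam1, chr10:79664459-79664558: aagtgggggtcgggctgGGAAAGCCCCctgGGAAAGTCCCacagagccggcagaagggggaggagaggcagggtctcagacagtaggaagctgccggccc
Cxcl12, chr6:117168435-117168534: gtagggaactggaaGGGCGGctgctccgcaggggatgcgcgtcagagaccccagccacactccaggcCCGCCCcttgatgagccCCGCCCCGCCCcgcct
The TATAAA of Cxcl13 lies 46 to 41 bases before the start, and 12.4% of 32851 windows of this length hold one. Madcam1 holds 2 matches to the NF-κB consensus, at 83 to 74 and 70 to 61 bases before the start, and 3.9% of windows hold any. In the shown stretch Cxcl12 holds 4 matches to GGGCGG or its reverse complement, the last 2 of them sharing a base, and 32.7% of windows hold any. These matches describe the letters of the windows and show no binding in these nodes.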

How the data were processed

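RNA-seq of 12 mandibular node libraries was used. Per the labels, total RNA was extracted with RNeasy kits and made into directional NEBNext Ultra II libraries. Per the submitters' processing notes, fastp 0.23.2, HISAT2 2.2.1, StringTie 2.2.1 and the GRCm39 build were used. The authors deposited estimated counts per Ensembl ID, whole as deposited, so none was rounded; how reads of near-identical genes were assigned is not given in the sources used here. Names came from GENCODE M21 on GRCm38, which matched 51948 of 56941 IDs, and sequences from M21 transcripts and RefSeq promoters of GRCm38.p6.

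The test was the quasi-likelihood one of edgeR 4.0.16 in R 4.3.3, after TMM scaling and filterByExpr at a minimum count of 10, in 1 model of 4 group means over 12 libraries with 8 residual degrees of freedom. It gave 5 two-sided contrasts, adjusted by Benjamini-Hochberg over 20034 genes with a threshold of 0.05. The model was tested on simulated data. Totals of 36.9 to 58.4 M per library, and 3 libraries per group, limit the precision; 3 counts is the floor used. Libraries of 1 group differed by a chi-squared per degree of freedom of 37.6 to 299, so none was a repeat of another.

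The 9 genes and 13 other lists (150 entries with the 9, of which 149 matched) were chosen with earlier results of these data known. All 9 genes are named, with receptors and partners (1 is not reported here) and up to 4 genes of smallest p per other list; further called genes of the matrix, follicular, endothelial and lymphotoxin lists were named after their values were seen. The lists of salivary gland, skin, fat, muscle, T cell and B cell markers are given only as counts and sums. Like patterns used log2 CPM with a prior count of 2. Alternatives were DESeq2 1.42.0 size factors and Wald test, other filters, fewer libraries, a replicate block, salivary covariates, sex (chosen after the data were seen), and each library left out. Figures used matplotlib 3.10.9 under Python 3.11.15.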

Additional observations from a re-analysis of the deposited data

Results flagged for a closer look

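Of the other stromal genes tested, 3 gave a genotype-by-challenge interaction past the threshold with edgeR, where 2.11% of all genes did. Sox9, a transcription factor that follicular dendritic cells share with gland ducts and other epithelia, had an interaction of 4.43 on the log2 scale (SE 0.72, adjusted p = 0.0237). It read 8.38, 16.8 and 5.91 CPM in KO_DTH, 2.93, 2.15 and 6.05 CPM in KO_se, 0.96, 1.19 and 1.02 CPM in WT_DTH and 5.30, 4.95 and 14.2 CPM in WT_se. With 2 salivary components as covariates the interaction was -0.35. Vwf had an interaction of 2.29 (adjusted p = 0.0237) and 2.15 with those covariates. Acta2 had one of 3.99 (adjusted p = 0.0237) and 1.69 with those covariates. With the covariates none of the 3 passed, in a fit that called 0 of all genes for the interaction. Without 1 library the call was lost for Sox9 in 4, for Vwf in 6 and for Acta2 in 3 of 12 fits, at adjusted p of at most 0.0719, 0.0725 and 0.0719.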

How the results depend on the processing

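Under alternatives the 9 genes gave 919 values over 45 results. Of these values 828 kept direction and side of the threshold, 27 lost it, 7 gained it and 57 changed sign. Most of the 45 results were not called in the main fit and so had no call to lose. The losses fell on the called ones. For challenge in wild type these were Ccl21a (lost in 9 of 22 alternatives), Cxcl12 (3 of 21) and Col3a1 (4 of 21). For genotype when sensitized it was Cxcl13 (11 of 21). The causes were not tested. Deviations from the group means correlated weakly between libraries of the same replicate number (-0.0984 to 0.141 over 12 pairs, 1 over 0.1). The labels do not say what a shared number means. By Xist against Ddx3y, replicate 1 was male and replicate 3 female in every group, and replicate 2 was of mixed sex. With the replicate block 38 genes were called for genotype when challenged (120 without) and 128 for the interaction (422), and of the 9 genes Ccl21a lost its wild-type call (adjusted p = 0.06). Sex as covariate gave 265 genes for genotype when challenged and took the Ccl21a call (adjusted p = 0.0624). Without a filter Ccl21a (adjusted p = 0.0517) and Cxcl13 (0.055) lost their calls, leaving 0 for genotype when sensitized, and 64 and 267 genes were called for genotype when challenged and the interaction. DESeq2's Wald test called 1 of the 9 for challenge in knockout and 1 for the interaction, and 2984, 2301, 932 and 1240 genes for challenge in knockout, genotype when sensitized, genotype when challenged and the interaction. With 2 salivary components as covariates 0 of the 9 were called for challenge in wild type and for genotype when sensitized, and 486, 7, 90, 1 and 0 genes for challenge in knockout, in wild type, genotype when sensitized, when challenged and the interaction. Without the most salivary library of each group 673, 2464, 351 and 168 genes were called for challenge in knockout, in wild type, genotype when sensitized and the interaction, and 0 of the 9 for genotype when sensitized.

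Signs changed as follows. With the salivary components, challenge in wild type gave Ccl19 -0.71, Pdgfrb 1.71 and Glycam1 0.80, challenge in knockout Pdgfrb -0.76 and Col3a1 -0.52, genotype when sensitized Ccl21a -0.69, Cxcl12 0.33 and Col3a1 0.22, and genotype when challenged Cxcl12 -0.021, Pdgfrb -0.033 and Glycam1 -1.63. The interaction then gave Ccl19 3.10, Cxcl12 -0.35, Pdgfrb -2.47, Glycam1 -1.94, Madcam1 1.49 and Sox9 -0.35. Without the most salivary libraries, challenge gave Pdgfrb 0.49 and Glycam1 0.28 in wild type and Col3a1 -1.04 and Glycam1 2.53 in knockout, and genotype gave Pdpn -0.11 and Glycam1 -0.80 when sensitized and Cxcl12 -0.085 when challenged. With the replicate block Glycam1 was 0.20 and 0.14 for challenge in wild type and knockout and -0.058 for the interaction, Col3a1 -0.025 for challenge in knockout and Ccl19 0.15 for the interaction. With sex, Cxcl13 was -0.073 for challenge in wild type and Glycam1 0.15 for challenge in knockout.

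Leaving out 1 library gave 0 to 3 of the 9 genes called for challenge in wild type, 0 to 2 in knockout, 0 to 1 for genotype when sensitized, 0 when challenged and 0 to 2 for the interaction. Over all genes the counts were 2566 (without replicate 3 of WT_DTH) to 3890, 1039 (without replicate 1 of KO_DTH) to 2035, 369 (without replicate 2 of KO_se) to 1100, 14 (without replicate 1 of WT_DTH) to 471 (without replicate 3 of KO_DTH) and 0 (without replicate 3 of WT_DTH) to 830 (without replicate 3 of KO_DTH). Signs changed within these ranges: challenge in wild type, Cxcl13 -0.0036 to 0.36, Pdgfrb -0.76 to 0.23 and Glycam1 -0.74 to 0.47; challenge in knockout, Col3a1 -0.82 to 0.54 and Glycam1 -1.13 to 1.99; genotype when sensitized, Cxcl12 -0.31 to 0.16, Pdpn -0.55 to 0.90 and Glycam1 -1.56 to 1.34; genotype when challenged, Cxcl12 -0.12 to 0.48, Cxcl13 -0.39 to 0.87, Glycam1 -0.29 to 1.26 and Madcam1 -1.50 to 0.73; the interaction, Ccl21a -0.15 to 1.03, Cxcl12 -0.080 to 0.62, Pdpn -1.24 to 0.21 and Glycam1 -0.88 to 2.28. Of the 49 calls in the other stromal lists 16 held without any 1 library. At 0 to 96 counts per library, Ccl19, Pdpn, Pdgfrb and Madcam1 are limited by depth.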

Other observations

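Marker lists of neighbouring tissues other than salivary gland were read in every library at low sums. The skin keratinocyte list summed to 63.2 to 80.3 CPM in KO_DTH, 41.0 to 60.4 CPM in KO_se, 74.3 to 82.8 CPM in WT_DTH and 50.5 to 57.4 CPM in WT_se, and 2 of its 8 genes, Krt1 and Lor, were at 0 in all libraries. Most of that sum was Sfn, which other epithelial cells express too, at 72.0, 80.2 and 74.9 CPM in WT_DTH and 47.6, 52.8 and 53.2 CPM in WT_se. The basal keratin genes were low: Krt14 read 0, 0.165 and 0.439 CPM in WT_DTH and 1.01, 1.47 and 1.07 CPM in WT_se, and Krt5 read 0, 0.0551 and 0.123 CPM in WT_DTH and 0.432, 0.803 and 0.619 CPM in WT_se. The adipocyte list summed to 10.8 to 16.6 CPM in KO_DTH, 8.82 to 15.0 CPM in KO_se, 9.44 to 16.2 CPM in WT_DTH and 11.8 to 26.2 CPM in WT_se. Lpl was the largest part of the WT_DTH sums, at 9.64, 14.4 and 7.08 CPM, against 7.02, 10.8 and 4.62 CPM in WT_se. Fabp4 read 0.864, 1.54 and 1.56 CPM in WT_DTH and 5.73, 5.09 and 4.98 CPM in WT_se. Between these groups 4 of the 5 adipocyte genes tested had a negative log2 change and 1 a positive one. The skeletal muscle list summed to 8.98 to 9.43 CPM in KO_DTH, 7.46 to 13.9 CPM in KO_se, 8.24 to 11.1 CPM in WT_DTH and 9.50 to 15.7 CPM in WT_se. After challenge in wild type 3 of 5 adipocyte genes and 1 of 7 muscle genes tested fell. Of 4 keratinocyte genes tested Sfn rose (log2 change 0.56, adjusted p = 0.0127 by edgeR) and Krt5 fell (-3.28, adjusted p = 0.0335). Of all genes 8.97% were called lower there and 9.77% higher. The part of these tissues in the values of the 9 genes was not tested.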
